A study of Zea mays with 9 samples.

Results

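NDL1 (GRMZM2G038401) and Aox (GRMZM2G125669) are 2 of the 39305 maize genes in the deposited tables, and both were taken by identifier. NDL1, labelled zmftsh10, is the gene mutated in the ndl1 (needle1) plants of the study. Aox is an alternative oxidase gene. Both were chosen with earlier results of these data known. RNA was sequenced from tassels, the male inflorescences, of field-grown plants in the B73 inbred background, at a length of 2 to 4 mm. The 3 groups were wildtype (3 libraries), ndl1/zmftsh10 mutants (4 libraries) and plants heterozygous for both Bif1 and Bif4 (2 libraries, written Bif1;Bif4). The ndl1 samples included severely affected tassels on which a few axillary meristems had formed. The labels do not say whether these plants were homozygous or which lesion they carried.

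FtsH proteins are ATP-dependent metalloproteases anchored in membranes of mitochondria and plastids, where they extract and degrade damaged or unassembled proteins. In Arabidopsis, FtsH10 and FtsH3 form the protease complex of the inner mitochondrial membrane that faces the matrix, and this complex associates with a ring of prohibitins. Alternative oxidase is a terminal oxidase of the same membrane. It passes electrons from ubiquinol to oxygen without pumping protons, and its transcript is widely used in plants as a marker of signalling from disturbed mitochondria to the nucleus.

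NDL1 was transcribed at much the same level in all 9 libraries, while Aox was close to the limit of detection in wildtype and abundant in every ndl1 library. Levels are given as normalized counts, that is, reads of a gene divided by the size factor of its library, with the 9 libraries scaled together. Libraries held 16863087 to 22533736 reads counted to genes. All 4 Aox values of ndl1 lay above 400, against values under 3 in wildtype. The groups overlapped in NDL1.

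**Figure D1:**
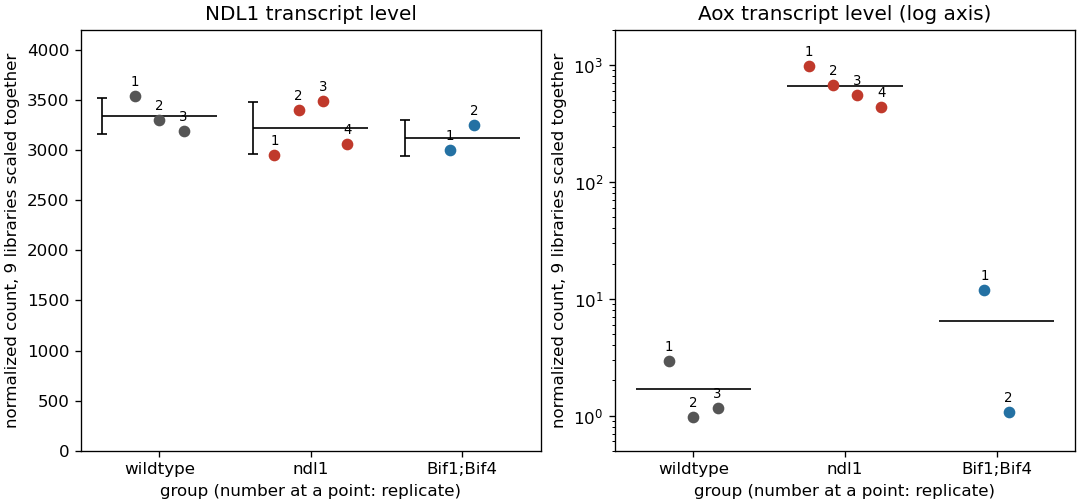
Normalized counts (9 libraries scaled together) of NDL1 on a linear axis from 0 and of Aox on a log axis, by group. Each point is a library with its replicate number, horizontal lines are group means and the bars beside the NDL1 means are 1 SD. NDL1 lay between 2954 and 3540 in all libraries, and Aox between 439 and 979 in ndl1, at 0.970 to 2.92 in wildtype and at 1.06 and 11.8 in Bif1;Bif4.

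The first comparison asks whether the transcript of the mutated gene itself differed in its mutant. NDL1 stood at 3540, 3298 and 3194 normalized counts in wildtype replicates 1 to 3. In ndl1 it stood at 2954, 3402, 3487 and 3057 in replicates 1 to 4. Replicates 2 and 3 of ndl1 lay within the wildtype range and replicates 1 and 4 below it. The difference between ndl1 and wildtype in mean log2(normalized count + 1) was -0.05 ± 0.08 (SE), with a 95% interval of -0.24 to 0.13 (limma, Benjamini-Hochberg adjusted p = 0.743). On the fold scale that interval ran from 0.846 to 1.10. The test did not call NDL1, and a missed threshold does not show equal levels. Of the 22416 genes tested in this comparison, 3.16% were called in either direction at an adjusted p under 0.05. The transcript amount therefore gave no check of the genotype labels.

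The reads behind each NDL1 value were many, 2743 to 3940 per library, and counting error was small beside the spread between libraries. Summed over libraries and scaled, the ndl1 reads were 0.962 times the wildtype reads. The exact 95% interval of that ratio, which covers counting error only, was 0.937 to 0.988 and did not include the spread between libraries of a group. The SD of NDL1 within groups was 0.10 on the log2 scale, against a median of 0.11 over 2907 tested genes within a factor of 2 of its level. In ndl1 the coefficient of variation was 8.03% and in wildtype 5.31%.

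In Bif1;Bif4, whose labelled mutations lie in other genes, NDL1 stood at 2998 and 3252 normalized counts. One of these values lay below the wildtype range and the other within it. The difference from wildtype was -0.10 ± 0.08 (SE), with a 95% interval of -0.29 to 0.09 (limma, Benjamini-Hochberg adjusted p = 0.494), in a comparison in which 4.28% of 22381 genes were called. The mutants themselves differed by 0.04 ± 0.09 (SE, ndl1 minus Bif1;Bif4), with a 95% interval of -0.16 to 0.24 (limma, Benjamini-Hochberg adjusted p = 0.843). Without Bif1;Bif4 replicate 1 this difference changed sign, to -0.016. The authors' deposited table held log2 fold changes of -0.05 ± 0.09 in ndl1 and -0.10 ± 0.09 in Bif1;Bif4 for NDL1 (SE, DESeq2, adjusted p = 0.815 and 0.625).

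The second comparison concerns the alternative oxidase transcript. Aox stood at 2.92, 0.970 and 1.16 normalized counts in wildtype, from 3, 1 and 1 reads. In ndl1 it stood at 979, 679, 557 and 439 normalized counts in replicates 1 to 4, from 1049, 603, 629 and 442 reads. Every ndl1 library lay above every wildtype library. The groups also lay apart, in one direction or the other, in 20.1% of all genes tested. The exact Poisson interval (95%) of the wildtype replicate with most reads was 0.619 to 8.77 reads and that of the ndl1 replicate with fewest was 402 to 485, counting error only. As a share of all reads, in RPM (reads scaled to the same library total), Aox took 21.9 to 49.99 in ndl1 and 0.0495 to 0.148 in wildtype.

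Aox rose by 7.96 ± 0.34 (SE) on the log2(normalized count + 1) scale, with a 95% interval of 7.19 to 8.72 (limma, Benjamini-Hochberg adjusted p = 3.84e-05). It was higher in 4 of 4 ndl1 libraries, and 1.94% of the genes tested were called higher in ndl1. Among these genes Aox had the largest rise and the third smallest p. Its reads passed the filter on low counts only through the ndl1 libraries, so that a pass already required a difference. The ratio of scaled reads was 388, with an exact 95% interval of 166 to 1197 that covers counting error only and is wide because wildtype held 5 reads in all. Adding 1 to each count shrank the limma fold to 248, and adding 10 gave a log2 difference of 5.79 instead of 7.96.

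The authors' deposited table also ranked Aox among the strongest changes in ndl1, second in p and second in log2 fold change of its DESeq2 results. Its value there was 4.74 ± 0.25 (SE, adjusted p = 1.64e-78). The log2 ratio of the mean normalized counts in the same table was 8.62, so that the deposited log2 fold change is not the plain ratio of the deposited levels.

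**Figure D2:**
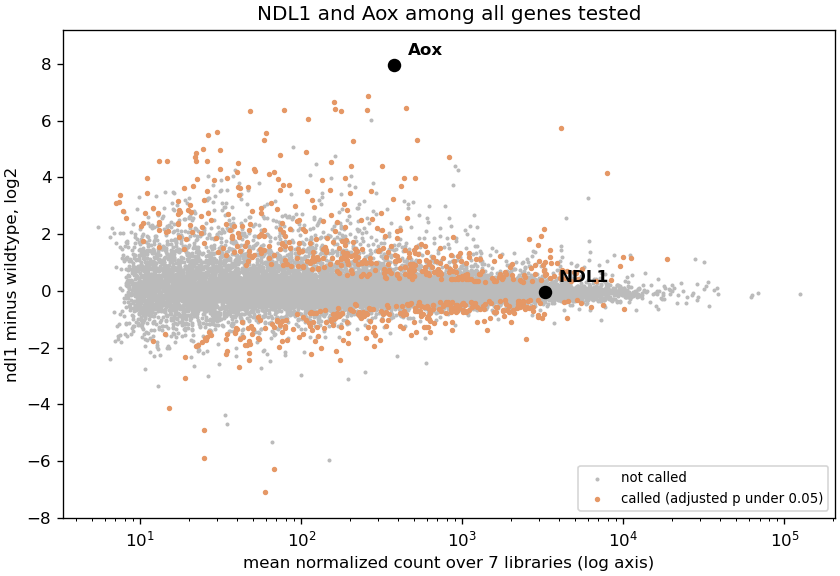
Difference between ndl1 and wildtype (log2, y axis) against the mean normalized count over the 7 libraries (log x axis) for the 22416 genes tested, with called genes in orange. Aox lies at 7.96, the highest point of the plot, and NDL1 at -0.05, in the band of genes not called.

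Within ndl1 the Aox level varied more than that of NDL1, with a highest value 2.23 times the lowest and an SD of 0.49 on the log2 scale. Replicate 1 was highest and replicate 4 lowest. These 2 libraries were also the ones with the lowest NDL1 values, so that the libraries did not keep one order for both genes. By Dixon's ratio no ndl1 library stood apart for either gene (0.557 for Aox and 0.187 for NDL1, both under the 95% critical value for 4 samples). With any one library left out, the Aox difference from wildtype ran from 7.75 to 8.26 and was called each time.

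Aox was low in Bif1;Bif4, with an uneven level between its libraries. Replicate 1 held 13 reads (exact Poisson 95% interval 6.92 to 22.2, counting error only) and replicate 2 held 1 read. As normalized counts these were 11.8 and 1.06, the first above all wildtype values and the second within them. The gene did not pass the filter on low counts in this comparison and was not called there. Without the filter the log2 difference from wildtype was 0.98 ± 0.81 (SE), with a 95% interval of -0.93 to 2.90. It was 1.93 with DESeq2 and 1.88 with edgeR, and the ratio of scaled reads was 3.99, with an exact 95% interval of 1.36 to 14.1 for counting error only. It was -0.34 without Bif1;Bif4 replicate 1 and 2.31 without replicate 2. In the authors' deposited table the log2 fold change was 0.16 ± 0.13 (SE), with no adjusted p.

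Set directly against Bif1;Bif4, ndl1 had more Aox transcript by 6.95 ± 0.65 (SE) on the log2 scale, with a 95% interval of 5.50 to 8.40 (limma on the 9 libraries, Benjamini-Hochberg adjusted p = 0.000705). All 4 ndl1 libraries lay above both Bif1;Bif4 libraries, and the groups lay apart in 27.8% of the 23203 genes tested in that comparison. In it 1.79% were called higher in ndl1. Here too the reads of Aox passed the filter only through the ndl1 libraries, so that a pass already required a difference. Without Bif1;Bif4 replicate 1 the difference was 8.27, and without replicate 2 it was 5.63. The order of the groups was thus ndl1 highest, with wildtype and Bif1;Bif4 overlapping.

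The labelled tissue was checked against marker genes. Of 10 tassel primordium genes found by name, 6 had at least 10 reads in every library, among them the meristem homeobox gene kn1, and none was without reads in all. Summed, the 10 took 843 to 1008 RPM in wildtype, 554 to 931 in ndl1 and 930.5 to 1068 in Bif1;Bif4. Single genes moved apart within these sums. In ndl1 2 of 10 were called lower, td1 (-1.56) and the axillary meristem gene ba1 (-1.83), against 1.22% of all genes (limma, Benjamini-Hochberg adjusted p = 0.0190 and 0.0396). The td1 call held in 10 and the ba1 call in 7 of 14 other settings. In Bif1;Bif4 5 of 10 were called lower, against 2.05% of all genes. These were kn1 (-0.42), the branching genes ra1 (-6.03) and ra3 (-5.94), td1 (-1.40) and ba1 (-6.15), while ub3, at 1.05, was not called. Their adjusted p ran from 0.00303 for ba1 to 0.0479 for kn1 (limma, Benjamini-Hochberg), and the kn1 call held in 4 of 12 other settings. With single libraries left out these counts ran from 0 to 3 in ndl1 and from 1 to 5 in Bif1;Bif4, the lowest without wildtype replicate 2 among others. edgeR called 1 lower in ndl1 and 4 in Bif1;Bif4. DESeq2 called 5 lower in ndl1, and 7 lower and 1 higher in Bif1;Bif4. Of all genes DESeq2 called 9.87% and 9.41% in either direction. The gene ra1 held 1 and 0 reads in Bif1;Bif4 and 5 in ndl1 replicate 1.

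Of the other tissues, 11 green leaf genes took 44.9 to 54.7 RPM in wildtype, 53.7 to 87.0 in ndl1 and 62.3 to 76.8 in Bif1;Bif4. The direction in ndl1 turned without ppdk1, which rose by 3.23 there (limma, Benjamini-Hochberg adjusted p = 0.0118, and 0.0718 without wildtype replicate 2). In Bif1;Bif4 ppdk1 also rose, by 2.45 (limma, Benjamini-Hochberg adjusted p = 0.0434), a call that held in 7 of 12 other settings. It was the 1 gene called of 7 leaf genes tested in each mutant, beside 3.16% of all genes in ndl1 and 4.28% in Bif1;Bif4. The other 10 genes took 42.0 to 50.05 RPM in wildtype, 26.9 to 40.2 in ndl1 and 37.95 to 66.5 in Bif1;Bif4. Most of their reads came from pep1 GRMZM5G899080 (319 to 604 per library) and lhcb GRMZM2G149428 (159 to 661). None of the rest held more than 64 reads in any library. Later anther genes took 50.3 to 54.1 RPM in wildtype, 54.8 to 58.6 in ndl1 and 48.6 to 62.8 in Bif1;Bif4. Most of these reads came from GRMZM2G163233 (851 to 1246 per library), while GRMZM2G102183 held 29 to 138 and the rest at most 10. Endosperm genes stayed at or below 0.248 RPM. The part of these shifts in the Aox level was not tested, and in bulk tissue fewer cells of a kind and less RNA per cell cannot be told apart.

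Other members of both families were looked up by name in the RefSeq gene table. Besides NDL1, 2 FtsH genes were named, FtsH2A (GRMZM2G110408) and FtsH2B (GRMZM2G087598). In Arabidopsis FtsH2 is a protease of the thylakoid membrane of chloroplasts. FtsH2B stood at 570 to 581 normalized counts in ndl1 and 613 to 691 in wildtype, without overlap, and the difference of -0.17 ± 0.07 was not called (SE, limma, Benjamini-Hochberg adjusted p = 0.230). The groups also lay apart, in one direction or the other, in 20.1% of all genes tested. FtsH2A stood at 364 to 374 in ndl1 and 361 to 466 in wildtype, a difference of -0.13 ± 0.10 (SE, limma, Benjamini-Hochberg adjusted p = 0.490). So 0 of 3 named FtsH genes were called in ndl1 or in Bif1;Bif4 by limma, edgeR or DESeq2. Over all genes limma called 3.16% in ndl1 and 4.28% in Bif1;Bif4, and DESeq2 9.87% and 9.41%. An unadjusted limma p under 0.05 was found in 0 of the 3, beside 4942 of 22416 and 5219 of 22381 genes. The median log2 difference of the 3 in ndl1 was -0.13, beside -0.001 over all genes tested. No other FtsH gene was found by name, an FtsH3 gene included, so that these 3 are no survey of mitochondrial FtsH genes.

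The alternative oxidase family had 1 more identifier in the tables, aox3 (GRMZM2G074743), while the gene that RefSeq lists separately as aox1 had no identifier in them. In wildtype aox3 stood at 2.92, 3.88 and 37.3 normalized counts. In ndl1 it stood at 45.7, 12.4, 21.2 and 31.8, so that wildtype replicate 3 lay above 3 of the 4 ndl1 libraries. The difference was 1.53 ± 0.80 and was not called (SE, limma, Benjamini-Hochberg adjusted p = 0.301). Bif1;Bif4 held 4.54 and 2.13, too few reads to pass the filter. Of the 2 tested alternative oxidase genes only Aox was called higher in ndl1, beside 1.94% of all genes tested. Aox was chosen with earlier results known and passed the filter only through the ndl1 libraries. This count therefore says nothing of the family. Whether reads were shared between both genes was not tested, since their sequences were not used here.

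In the RefSeq gene order aox3 is a close neighbour of Aox, with 1 gene, GRMZM2G074761, between them. That gene had at most 1 read in any library. On the other side of Aox the nearest 2 genes with identifiers were GRMZM2G125679 and GRMZM2G125704. Libraries of ndl1 and wildtype did not overlap, in one direction or the other, in 20.1% of all genes tested. These 2 neighbours stood higher in ndl1 than in wildtype in all 4 libraries. Their differences of 1.02 ± 0.28 and 0.81 ± 0.21 did not pass (SE, limma, Benjamini-Hochberg adjusted p = 0.0883 and 0.0783). Directly against Bif1;Bif4, GRMZM2G125679 was called higher in ndl1, by 1.35, and GRMZM2G125704 was not, at 0.63 (limma, Benjamini-Hochberg adjusted p = 0.0475 and 0.339). In that comparison 1.79% of all genes tested were called higher in ndl1. GRMZM2G125679 stood at 32.7 to 51.3 normalized counts in ndl1 and 14.6 to 25.6 in wildtype, and GRMZM2G125704 at 56.6 to 80.5 and 33.0 to 45.7. Neither these nor GRMZM2G074761 has a descriptive name in the table. Of the neighbours of NDL1, spp1 stood at 1307 to 1518 in ndl1 and 1146 to 1196 in wildtype (0.22 ± 0.07, SE, limma, Benjamini-Hochberg adjusted p = 0.136). GRMZM2G421415 differed by 0.00 ± 0.19 (SE), and the 2 genes on the other side had 0 to 12 reads.

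Prohibitins are the scaffold proteins with which mitochondrial FtsH proteases associate. Of 3 prohibitin genes tested, 2 rose in ndl1 and none fell, against 1.94% of all genes tested called higher, and phb4 had no identifier in the tables. The gene phb2 (GRMZM2G107114) stood at 3786, 4569, 3695 and 3437 normalized counts in ndl1 against 2456, 2301 and 2251 in wildtype. It rose by 0.72 ± 0.10 (SE, limma, Benjamini-Hochberg adjusted p = 0.0105). The gene phb3 (GRMZM2G410710) stood at 605, 629, 501 and 378 against 266.5, 239 and 228, and rose by 1.08 ± 0.18 (SE, limma, Benjamini-Hochberg adjusted p = 0.0195). edgeR and DESeq2 called the same number, 2 of 3, and DESeq2 called 9.87% of all genes in either direction. With single libraries left out the phb2 call was lost without wildtype replicate 2, and the phb3 call without ndl1 replicate 1 or any one wildtype replicate, with adjusted p up to 0.0717 and 0.110 (limma). The differences then stayed within 0.64 to 0.78 for phb2 and 0.99 to 1.24 for phb3. The highest of the ndl1 libraries for both genes was replicate 2 and the lowest replicate 4, the library that was also lowest for Aox. In phb1 (GRMZM2G134955) the groups overlapped, with a difference of 0.10 ± 0.15 (SE). The groups of Bif1;Bif4 and wildtype lay apart in 42.1% of all genes tested. Bif1;Bif4 replicates held 2008 and 2024 for phb2, below all wildtype values without a call (-0.22 ± 0.07, SE, limma, Benjamini-Hochberg adjusted p = 0.138). For phb3 they held 320 and 343, above all wildtype values and also without a call (0.44 ± 0.12, SE, limma, Benjamini-Hochberg adjusted p = 0.0967). Of the 3 prohibitin genes 0 were called in Bif1;Bif4 by limma, edgeR or DESeq2, and 2 had an unadjusted limma p under 0.05. Of all genes tested there, limma called 4.28% and DESeq2 9.41%, and 5219 of 22381 had such a p. Directly compared, ndl1 exceeded Bif1;Bif4 in phb2 by 0.93 (limma, Benjamini-Hochberg adjusted p = 0.00203), while for phb3 the difference of 0.64 was not called (adjusted p = 0.111, limma).

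**Figure D3:**
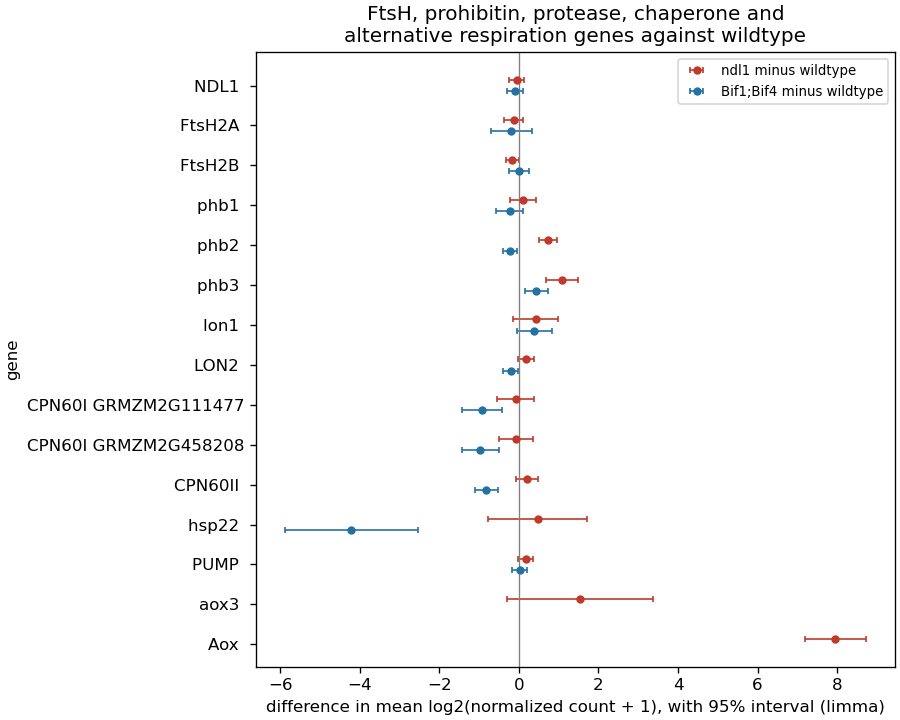
Differences from wildtype in mean log2(normalized count + 1), with 95% intervals from limma, for ndl1 (red) and Bif1;Bif4 (blue). Aox at 7.96 stands far to the right of the other genes in ndl1, phb2 and phb3 lie at 0.72 and 1.08, and hsp22 lies at -4.21 in Bif1;Bif4. A missing blue point means that the gene did not pass the filter on low counts there.

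Of 6 identifiers tested from mitochondrial proteases and chaperones, 0 were called in ndl1 by limma, edgeR or DESeq2. Over all genes limma called 3.16% there and DESeq2 9.87%. An unadjusted limma p under 0.05 was found in 0 of the 6, beside 4942 of all 22416 genes tested. The 6 had a median log2 difference of 0.19 and values from -0.08 to 0.47. The Lon protease genes lon1 and LON2, named for a family that degrades oxidized proteins in organelles, differed by 0.42 ± 0.25 and 0.18 ± 0.09 (SE, limma, Benjamini-Hochberg adjusted p = 0.348 and 0.278). The matrix chaperonin gene CPN60II differed by 0.21 ± 0.12 (SE). In Bif1;Bif4, where Aox stayed low, 3 of the 6 fell, and 2.05% of all genes tested were called lower. These were CPN60II (-0.82 ± 0.12, SE), the small heat shock protein gene hsp22 (-4.21 ± 0.70, SE) and 1 of 2 identifiers of CPN60I (-0.97 ± 0.20, SE), with adjusted p of 0.0218, 0.0294 and 0.0448 (limma, Benjamini-Hochberg). Each of these calls was lost without wildtype replicate 2 and without Bif1;Bif4 replicate 2, with adjusted p up to 0.155, 0.134 and 0.217 (limma). Those of CPN60II and CPN60I were also lost without Bif1;Bif4 replicate 1, that of CPN60I also with no filter on low counts (adjusted p = 0.0520, limma), and that of hsp22 without wildtype replicate 1 and with the replicate number as a block. Both CPN60I identifiers belong to 1 RefSeq gene and may share reads. The gene hsp22 stood at 146 and 26.6 normalized counts in Bif1;Bif4, against 730 to 2019 in wildtype and 572 to 2604 in ndl1.

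The list of alternative respiration and uncoupling held Aox, aox3 and PUMP (GRMZM2G000510), the gene of a mitochondrial uncoupling protein. PUMP stood at 882 to 1056 normalized counts in ndl1 and 819 to 905 in wildtype, a difference of 0.17 ± 0.08 that was not called (SE, limma, Benjamini-Hochberg adjusted p = 0.267). Of 6 tested genes with names of respiratory chain or ATP synthase subunits 0 were called in ndl1 and 0 in Bif1;Bif4, with medians of 0.002 and -0.05. Over all genes tested limma called 3.16% in ndl1 and 4.28% in Bif1;Bif4, and DESeq2 9.87% and 9.41%. Thus 0 calls in so few genes set no list apart. The calls among the 6 were the same with edgeR and DESeq2, and 1 gene in each mutant had an unadjusted limma p under 0.05. Such a p was found in 4942 of 22416 genes in ndl1 and in 5219 of 22381 in Bif1;Bif4. Genes of superoxide and peroxide removal likewise gave 0 calls among 13 tested in either mutant, with medians of 0.02 in ndl1 and 0.003 in Bif1;Bif4. In ndl1 1 of these had an unadjusted limma p under 0.05, and edgeR and DESeq2 called 0. In Bif1;Bif4 3 had such a p and DESeq2 called 1, against 9.41% of all genes. The 13 included sod3 (GRMZM2G059991), the name of the maize mitochondrial manganese superoxide dismutase, at 0.00 ± 0.11 (SE) in ndl1. The catalase gene cat1 differed by 0.22 ± 0.09 (SE, limma, Benjamini-Hochberg adjusted p = 0.196).

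Heat shock genes were included because the series title links NDL1 to growth at high temperature. Of 20 tested in ndl1, 1 rose, none fell and 19 did not pass, with a median log2 difference of -0.09. Over all genes tested 3.16% were called in either direction. An unadjusted limma p under 0.05 was found in 3 of the 20, beside 4942 of all 22416 genes tested. The riser was the heat shock factor gene HSF6, at 345 to 629.9 normalized counts in ndl1 and 201.4 to 254 in wildtype (1.06 ± 0.20, SE, limma, Benjamini-Hochberg adjusted p = 0.0310). Its call was lost without ndl1 replicate 1 or any one wildtype replicate, with adjusted p up to 0.127 (limma). The disaggregase gene hsp101 stood at 514 to 1677 in ndl1 and 997 to 4034 in wildtype, with overlap. In Bif1;Bif4 the factor gene HSF2 rose (0.68 ± 0.11, SE, limma, Benjamini-Hochberg adjusted p = 0.0243) and hsp22 fell, and 18 of 20 did not pass, against 4.28% of all genes called. The median there was -0.70, with 5 of 20 differences above 0. An unadjusted limma p under 0.05 was found in 10 of the 20, beside 5219 of all 22381 genes tested. The HSF2 call was lost without wildtype replicate 2 or either Bif1;Bif4 library, with adjusted p up to 0.170 (limma). DESeq2 called 6 of the 20 there and 9.41% of all genes.

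Genes whose pattern was most like that of Aox were sought among 18826 tested genes with a mean of at least 50 normalized counts. Likeness was the root mean square difference, over the 9 libraries, of log2(normalized count + 1) after the wildtype mean of each gene was subtracted. The 5 nearest were GRMZM2G126367 (0.98), gst2 (1.04), gst42 (1.17), GRMZM2G388045 (1.27) and GRMZM2G120016 (1.32), against a median of 5.39 for all candidates. They share these libraries, and likeness of pattern is a description with no test. The genes gst2 and gst42 are glutathione transferase genes, and the other 3 have no descriptive name. GRMZM2G126367 held 422, 295, 216 and 204 reads in ndl1, and 2, 2 and 1 in wildtype. GRMZM2G120016 held 195, 114, 154 and 100 reads, against 1, 0 and 1.

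The libraries of ndl1 did not keep one order over these genes. Replicate 1 was highest for Aox, GRMZM2G126367, gst42 and GRMZM2G120016. For gst2 it was replicate 4, which was the lowest for Aox, and for GRMZM2G388045 replicate 2. The highest ndl1 value was 1.41 to 2.62 times the lowest in the 5 genes, beside 2.23 in Aox.

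**Figure D4:**
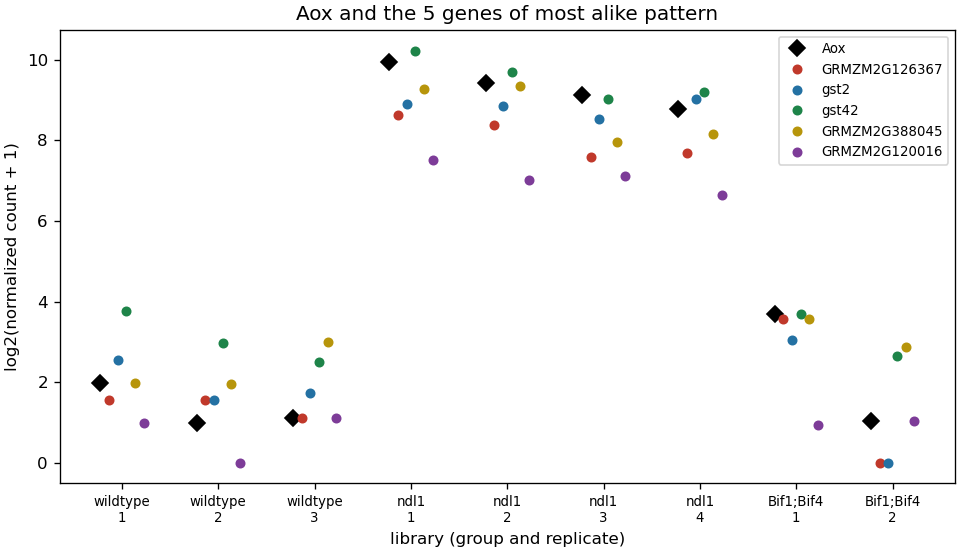
log2(normalized count + 1) of Aox (black diamonds) and of the 5 genes with the most alike pattern, by library. All 6 genes lie above 6 in every ndl1 library and below 4 in every wildtype and Bif1;Bif4 library.

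Many genes had a pattern close to that of NDL1. Of the same candidates, 886 lay within a root mean square difference of 0.1 from NDL1, and the median over all was 0.22. The 5 nearest, GRMZM2G059865, GRMZM2G039263, GRMZM2G409430, GRMZM2G029583 and GRMZM5G803433, lay at 0.02 to 0.04. None of them was called in ndl1 or in Bif1;Bif4, and their differences in ndl1 were between -0.08 and -0.02. Like NDL1, all 5 were lower in ndl1 replicates 1 and 4 than in replicates 2 and 3. These 5 genes were picked for likeness over the same libraries, so that such likeness is a description with no test.

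**Figure D5:**
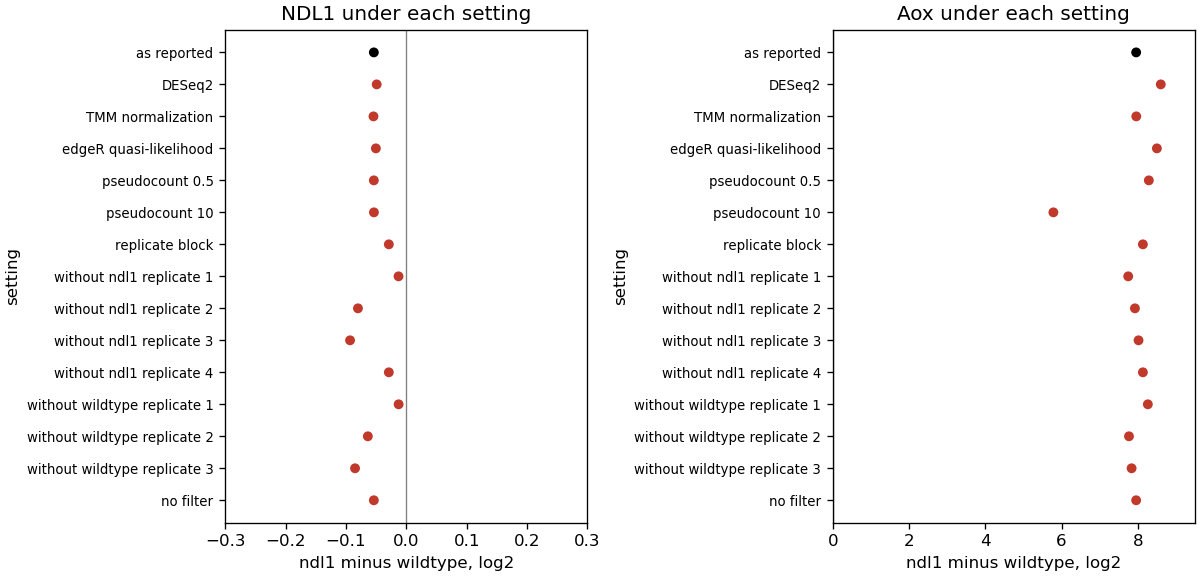
Difference between ndl1 and wildtype (log2) for NDL1 and Aox as reported (black) and under each other setting (red), including each library left out. NDL1 stayed between -0.09 and -0.01 and Aox between 5.79 and 8.60, the lowest with 10 added to each count.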

How the data were processed

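Libraries were stranded mRNA libraries of tassel RNA, per the labels' protocols. The submitters' processing notes name Trimmomatic, TopHat2 2.1.1, HTSeq and DESeq2. No source used here gives the genome build or the strand setting, so values of overlapping and antisense genes are uncertain. The deposited signal values are normalized counts, which the authors divided by a size factor per library. The authors also deposited log2 fold changes and a p-value per gene, per the file headers.

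At least 99.99% of the values of a library equalled a whole number of reads to within 0.1 reads, so reads were recovered, 16863087 to 22533736 per library. The wildtype reads differed in 0 genes between the tables. The main test was limma 3.58.1 (R 4.3.3) on log2(normalized count + 1), with its variance trend, within each table, on genes passing edgeR's filterByExpr (minimum count 10). P-values were adjusted by Benjamini-Hochberg over all genes tested, with a threshold of 0.05. Adding 1 understates the change of low genes. The direct comparison of the mutants and all printed levels used recovered reads and 1 set of size factors over the 9 libraries. Alternatives were edgeR 4.0.16, DESeq2 1.42.0 and the settings of the closing section. The fits were also run on simulated data, with changes far smaller than that of Aox and in genes above its wildtype level. That run is therefore no check of the Aox change, and its outcome is not given here.

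Names came from the RefSeq table of Zm-B73-REFERENCE-NAM-5.0, in which 18476 identifiers matched 1 gene and 521 several. Families planned by protein similarity were taken by name, as protein sequences were not used here. Name prefixes that match other gene families were dropped. Named genes were the members, their families, the 5 most alike patterns, the 2 nearest genes on each side and, from each list, up to 4 genes of lowest adjusted p in ndl1, some given only in counts. CPN60I, sod3, hsp101 and the marker genes lie outside that rule and were named after their values were seen. The members and lists were chosen with earlier results of these data known. The labels do not tie libraries to separate plants, and the p-values reflect library-to-library spread alone, part or all of which could be technical.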

Additional observations from a re-analysis of the deposited data

Results flagged for a closer look

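The level of Aox differed between the mutants by a direct test, in which the gene passed the filter on low counts only through the ndl1 libraries, so that a pass already required a difference. The level in ndl1 exceeded that in Bif1;Bif4 by 6.95 on the log2 scale (limma on the 9 libraries, Benjamini-Hochberg adjusted p = 0.000705), with 4 of 4 ndl1 libraries above both Bif1;Bif4 libraries. The Bif1;Bif4 libraries differed from each other, with 13 reads and 1 read.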

How the results depend on the processing

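The call of Aox in ndl1 against wildtype and against Bif1;Bif4 was kept under every setting run, and NDL1 was called under none. The values of NDL1 ran from -0.09 to -0.01 in ndl1 and from -0.16 to -0.04 in Bif1;Bif4. For ndl1 against Bif1;Bif4 they ran from -0.016, without Bif1;Bif4 replicate 1, to 0.10 without replicate 2. With single libraries left out, Aox in Bif1;Bif4 against wildtype ran from -0.34 to 2.31. The number of genes called over the whole table was far less stable. The counts of 708 in ndl1, 957 in Bif1;Bif4 and 806 between the mutants became 2210, 2105 and 1628 with DESeq2. With single libraries left out they ran from 114 (without wildtype replicate 2) to 1491 (without ndl1 replicate 2), from 17 (without wildtype replicate 2) to 1255 (without wildtype replicate 3), and from 155 (without Bif1;Bif4 replicate 2) to 900 (without ndl1 replicate 2); the cause was not tested. With the replicate number as a block they were 365, 431 and 336, and Aox in ndl1 stood at 8.13. The numbers are not shown to pair the samples, since same-numbered ndl1 and wildtype libraries correlated at -0.11, 0.22 and -0.01 in their deviations. The stricter identity minimum for the families was not run, since families were taken by name. The calls of prohibitin, chaperone, heat shock and marker genes were tried under the same settings, chosen after seeing the data. Depth limits Aox in wildtype and Bif1;Bif4, where single reads decide its level.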

Other observations

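The Bif1;Bif4 libraries also differed from each other in genes whose pattern was most like that of Aox. Replicate 1 held 12 reads of GRMZM2G126367 and 8 of gst2, and replicate 2 held 0 of either. For gst42 they held 13 and 5 reads, for GRMZM2G388045 12 and 6, and for GRMZM2G120016 1 and 1. In wildtype gst42 held 13, 7 and 4 reads. The 2 libraries also differed in leaf genes, with 661 and 176 reads of lhcb GRMZM2G149428 and 64 and 4 of lhcb GRMZM2G402936. The leaf genes ppdk1, with 220 and 447 reads, and pep1 GRMZM2G083841, with 4 and 5, went the other way. The likeness measure used these same libraries, and the differences were not tested.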
